A study of Homo sapiens with 6 samples.

Results

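The class IIa histone deacetylases HDAC4, HDAC5, HDAC7 and HDAC9, the salt-inducible kinases SIK1, SIK2 and SIK3, and the related kinases MARK2 and MARK3 were followed in Karpas-45 cells carrying a hairpin against MEF2C. The genes were chosen by name as known regulators of MEF2 factors, not by a cut on their values. Earlier results of these data were known at that choice. They make up 9 of the 78932 gene identifiers in each library.

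Karpas-45 is a human cell line grown from a T-cell acute lymphoblastic leukemia and labelled as leukemic blasts of bone marrow. RNA was sequenced from 3 libraries of cells with the MEF2C hairpin (genotype label MEF2C KD) and from 3 libraries of cells with a scramble hairpin (genotype label WT). Both groups were otherwise untreated, and the design text describes lentiviral delivery of a GFP-linked hairpin and sorting of GFP-positive cells 120 hours later. Only 1 hairpin against MEF2C was used, in 1 cell line. The libraries are labelled technical replicates, so every p-value below measures the spread between such replicates and not between independent cultures.

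Gene totals were 58748597, 97077335 and 50991704 reads in MEF2C hairpin replicates 1 to 3, against 63228784, 45560303 and 60717141 reads in scramble replicates 1 to 3. A floor of 3 reads therefore corresponds to between 0.0309 and 0.0658 CPM (the usual unit of read counts scaled by library size). MEF2C itself had 2, 0 and 0 reads in the MEF2C hairpin libraries and 2, 1 and 0 reads in the scramble libraries. All 6 values lie under the floor, so that no fold change is given and the level of the targeted gene cannot check the labels. The 9 T-lineage markers were all detected, and their summed level was 2848 to 2895 CPM in the MEF2C hairpin libraries against 2668 to 2706 CPM in the scramble libraries, with 6 of the 9 higher and 0 lower by edgeR. Of the other marker lists, 5 B-lineage genes summed to 4.10 to 4.22 CPM in the hairpin libraries and 2.99 to 3.56 CPM in the scramble libraries, with MS4A1 and PAX5 at 0 or 1 read. The 5 genes for embryonic kidney cells, the kind used to package the virus, summed to 26.4 to 27.6 CPM in the hairpin libraries against 23.6 to 25.3 CPM in the scramble libraries, with 2 higher, 1 lower and LHX1 at 0 reads in every library. Most of that sum was PODXL, at 23.5 to 25.2 CPM in the hairpin libraries and 21.0 to 21.8 CPM in the scramble libraries. The 5 myeloid genes summed to 1.67 to 2.59 CPM in the hairpin libraries and 1.76 to 2.09 CPM in the scramble libraries, and 4 erythroid genes to 0.579 to 1.62 CPM in the hairpin libraries and 0.511 to 5.73 CPM in the scramble libraries. HBB set the top of that last range, at 5.55 CPM in the highest scramble library and 0.494 CPM in the lowest. The part of these differences in the results that follow was not tested.

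Class IIa deacetylases bind MEF2 transcription factors through a short stretch near their amino terminus and hold MEF2 target genes down, largely through the NCoR corepressor complex and HDAC3. Kinases of several families phosphorylate conserved serines of these deacetylases, 14-3-3 proteins bind the phosphorylated sites, and the complex leaves or is kept out of the nucleus. SIK kinases are switched on by LKB1 and held back by protein kinase A, and they also phosphorylate the CRTC coactivators of CREB. HDAC7 is the class IIa enzyme best known from developing T cells, where work in mouse T cells placed it on the Nr4a1 gene.

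The hairpin's target is shown because a hairpin can also act on other messages through the seed of its antisense strand. It lies on the minus strand of MEF2C at chr5:88731793-88731813 (GRCh38) and was found in 24 MEF2C transcripts of GENCODE 29 and in the transcripts of 0 other genes. Capitals mark the bases that pair with bases 2 to 8 of the antisense strand, and the same 7 bases were searched in the annotated 3′ UTRs of all 9 genes. HDAC9 held 1 site at chr7:18999981-19000000 on the plus strand, and SIK3 held 1 site at chr11:116845601-116845620 on the minus strand. None was found in the 3′ UTRs of the other 7 genes, and no transcript of the 9 genes held the whole target.
MEF2C target: cccaatgaatttaGGAATGAa
HDAC9 site: ctgcttcaGGAATGAaatca
SIK3 site: acagcttgGGAATGAaaagg
A site of this kind was present in 1649 of 12046 tested genes with an annotated 3′ UTR (13.7%), with a median log2 fold change of -0.02 with a site and -0.00497 without. These medians were matched for neither 3′ UTR length nor abundance.

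Of the 9 genes, 8 had enough reads to be tested, and SIK1 did not. By edgeR's quasi-likelihood test with Benjamini-Hochberg adjustment over 17677 genes, HDAC7, HDAC9 and MARK2 were lower and SIK3 was higher in the MEF2C hairpin libraries. HDAC4, HDAC5, SIK2 and MARK3 did not pass the adjusted threshold of 0.05. The 4 calls among 8 genes stand beside a background of 28.8% of all tested genes called, with 15.3% lower and 13.5% higher. For 5 of the 8 genes the CPM ranges of the groups were separate, against 39.9% of all tested genes. The median log2 fold change of the 8 genes was 0.03, beside 0.00410 over all tested genes. Calls were more frequent among abundant genes. Of the genes averaging at least 100 CPM, as HDAC7 does, 44.9% were lower, and of those averaging 20 to 100 CPM, as HDAC9, MARK2 and SIK3 do, 23.5% were lower and 17.0% higher.

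**Figure D1:**
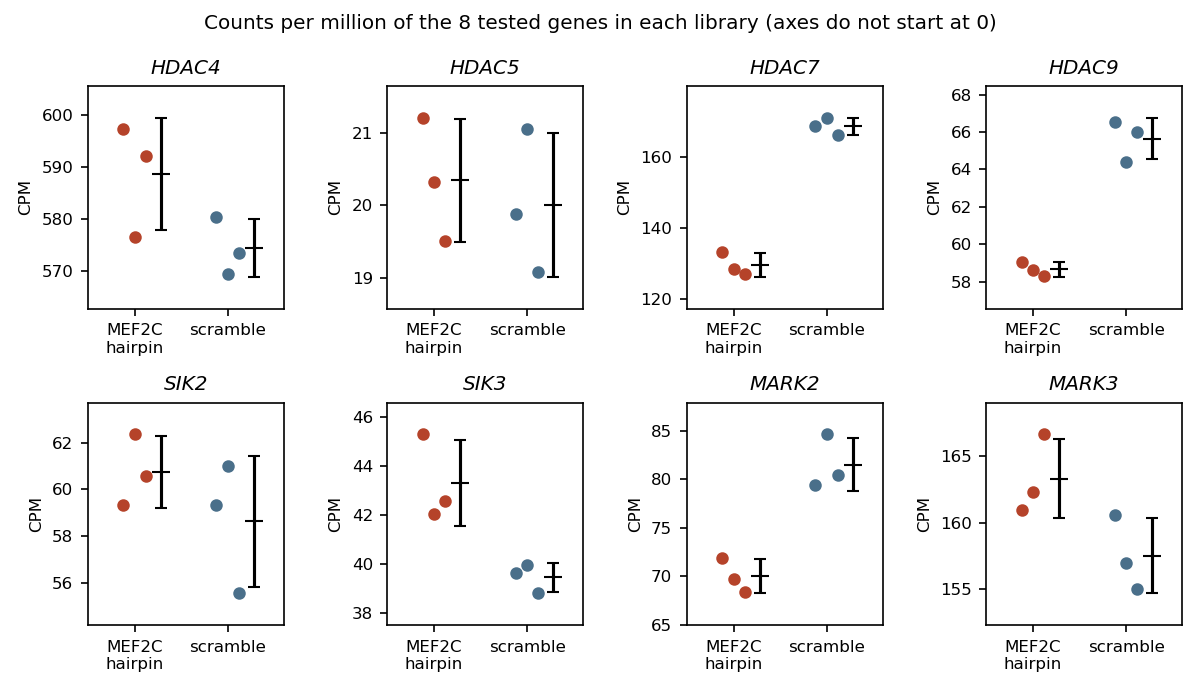
Each panel plots one tested gene, with CPM on the vertical axis (not starting at 0), a point for each library, and the mean with its SD (n = 3) beside the points, for the MEF2C hairpin libraries on the left and the scramble libraries on the right. HDAC7, HDAC9 and MARK2 lie lower in all 3 MEF2C hairpin libraries and SIK3 and MARK3 higher, while HDAC4, HDAC5 and SIK2 overlap between the groups.

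HDAC7 (ENSG00000061273.18, chr12:47782722-47833132, minus strand) showed the largest change of the 8 genes. It measured 133, 128 and 127 CPM in the MEF2C hairpin libraries, against 169, 171 and 166 CPM in the scramble libraries, from 6585 to 12655 reads in the hairpin libraries and 7625 to 10515 in the scramble libraries. Every hairpin library lay well under every scramble library. The means were 129 ± 3.29 CPM in the hairpin libraries and 169 ± 2.36 CPM in the scramble libraries (SD, n = 3 each), which is a change of -23.2%, or -0.38 on the log2 scale (SE 0.0253, 95% interval -0.43 to -0.33, edgeR adjusted p = 7.55e-15). In these bulk libraries, fewer cells with the transcript and less transcript per cell cannot be told apart. Of the exonic bases of HDAC7, 11.2% are overlapped by 3 genes on the other strand, AC004466.1, AC004466.3 and SLC48A1, a heme transporter gene. No source used here gives the strand setting of the counting, so reads in that stretch cannot be assigned with certainty. SLC48A1 averaged 7.44 CPM in the hairpin libraries and 6.52 CPM in the scramble libraries, and its log2 fold change was 0.20 with an SE of 0.0973 (edgeR adjusted p = 0.120). The part of the overlapped stretch in the HDAC7 values was not tested.

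HDAC9 (ENSG00000048052.25, chr7:18086949-19002416, plus strand) was the other class IIa gene that fell. In mouse muscle, Hdac9 is itself known as a target of MEF2. The gene measured 59.1, 58.6 and 58.3 CPM in the MEF2C hairpin libraries and 66.5, 64.4 and 66.0 CPM in the scramble libraries, from 3025 to 5785 reads in the hairpin libraries and 2873 to 4149 in the scramble libraries. The groups did not overlap, and the hairpin libraries lay within 1 CPM of each other. The log2 fold change was -0.16 (SE 0.0336, 95% interval -0.23 to -0.09), a change of -10.7% (edgeR adjusted p = 0.000209). HDAC9 is also the class IIa gene whose 3′ UTR holds the seed site printed above. Genes with such a site were lower in 25.4% of cases and those without in 20.2%. Genes with and without a site were matched for neither 3′ UTR length nor abundance. The longest 3′ UTR of HDAC9 has 6354 bases, beside a median of 1319 over the tested genes. Whether the site has a part in the fall of HDAC9 was not tested.

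The first promoter windows that RefSeq (GRCh38.p14) gives for the deacetylases that fell are printed because the hairpin was directed at a MEF2 factor. Each runs from 250 bases before to 50 bases after a start that RefSeq gives, which for HDAC7 lies inside the GENCODE span of the gene and for HDAC9 upstream of that span. The HDAC7 window is chr12:47819854-47820153 on the minus strand, and the HDAC9 window is chr7:18086575-18086874 on the plus strand. Capitals mark a match to the MEF2 consensus, which was searched by its degenerate letters on both strands.
HDAC7: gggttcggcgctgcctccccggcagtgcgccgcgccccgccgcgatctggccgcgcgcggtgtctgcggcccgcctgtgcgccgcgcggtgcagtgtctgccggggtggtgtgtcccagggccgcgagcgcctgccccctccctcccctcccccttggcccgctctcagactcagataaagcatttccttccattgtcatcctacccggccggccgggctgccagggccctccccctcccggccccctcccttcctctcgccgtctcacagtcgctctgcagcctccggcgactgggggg
HDAC9: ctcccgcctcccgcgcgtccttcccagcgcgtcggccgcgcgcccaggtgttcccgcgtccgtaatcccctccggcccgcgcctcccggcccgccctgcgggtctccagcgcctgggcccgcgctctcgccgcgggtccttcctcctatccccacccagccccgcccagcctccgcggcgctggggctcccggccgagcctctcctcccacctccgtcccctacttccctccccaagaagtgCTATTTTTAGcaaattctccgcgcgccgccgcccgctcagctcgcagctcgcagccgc
The HDAC9 window held 1 match and the HDAC7 window 0. Of 35116 windows of the same length, 2.99% held a match, and a match is a likeness of letters and not a shown binding site. Of all the windows given for HDAC4, HDAC7, HDAC9, SIK1, SIK2, SIK3, MARK2 and MARK3, this HDAC9 window alone held the MEF2 consensus. The full cAMP response element TGACGTCA, which 1.85% of all windows hold, was in none of them. The shorter TGACG core, searched on both strands and present in 24.6% of all windows, occurred 3 times in the SIK1 window, 2 times in those of SIK2 and SIK3, and 1 time in that of MARK3.

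HDAC4 (ENSG00000068024.18, chr2:239048168-239401654, minus strand) was the most abundant of the class IIa genes. It measured 597, 576 and 592 CPM in the MEF2C hairpin libraries, against 580, 569 and 573 CPM in the scramble libraries. Hairpin replicate 2 lay inside the scramble range. The log2 fold change was 0.03 (SE 0.0199, 95% interval -0.00544 to 0.0753) and did not pass the test (edgeR adjusted p = 0.207). With cyclic loess scaling and limma, which takes out trends of the difference with abundance, it was 0.11 (adjusted p = 9.81e-06), and its adjusted p ran from 9.81e-06 to 0.538 over 14 alternatives.

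HDAC5 (ENSG00000108840.17, chr17:44076746-44123702, minus strand) had the lowest level of the group. It measured 21.2, 20.3 and 19.5 CPM in the MEF2C hairpin libraries and 19.9, 21.0 and 19.1 CPM in the scramble libraries, so that the groups overlapped almost fully. The log2 fold change was 0.03 with a 95% interval of -0.09 to 0.14 (edgeR adjusted p = 0.775). A fall of HDAC5 as large as that of HDAC7 lies outside this interval.

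Within the class, HDAC7 took a smaller and HDAC4 a larger share of the reads in every MEF2C hairpin library than in any scramble library, a comparison that does not depend on library scaling. HDAC7 took 16.4, 16.4 and 15.9% of class IIa reads in the MEF2C hairpin libraries, against 20.2, 20.7 and 20.2% in the scramble libraries. HDAC4 took 73.8 ± 0.403% in the hairpin libraries and 69.3 ± 0.315% in the scramble libraries (SD, n = 3 each). HDAC9 took 7.36 ± 0.105% in the hairpin libraries and 7.92 ± 0.109% in the scramble libraries. HDAC5 took 2.55 ± 0.0910% in the hairpin libraries and 2.41 ± 0.121% in the scramble libraries. The difference for HDAC7 was -4.11 percentage points. The log2 ratio of HDAC4 to HDAC7 reads was 2.19 ± 0.0319 in the hairpin libraries and 1.77 ± 0.0280 in the scramble libraries. All pairs of genes within a family were compared in this way, 8 in all, and every pair that includes HDAC7, HDAC9 or MARK2 had separate ranges, which restates the calls of those genes. With 3 libraries a group, each of these pairs gave the smallest two-sided p that an exact permutation test allows, 0.1 (0.133 adjusted over the 8 pairs), so the design cannot pass 0.05. The ratios of HDAC4 to HDAC5 and of SIK2 to SIK3 overlapped between the groups.

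**Figure D2:**
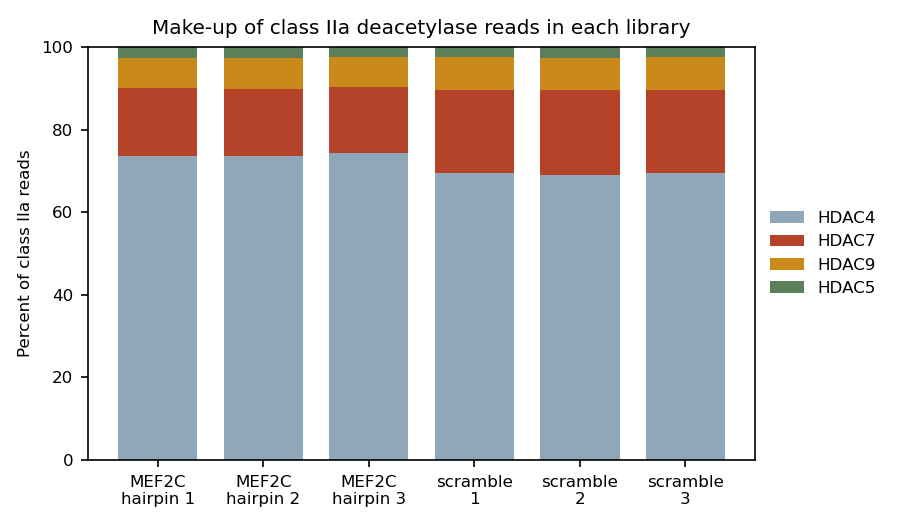
Stacked bars give the percent of class IIa deacetylase reads (vertical axis, from 0 to 100%) that came from HDAC4, HDAC7, HDAC9 and HDAC5 in each library, with the 3 MEF2C hairpin libraries on the left and the 3 scramble libraries on the right. The HDAC7 segment is 15.9 to 16.4% of each hairpin bar and 20.2 to 20.7% of each scramble bar.

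SIK3 (ENSG00000160584.17, chr11:116843402-117098437, minus strand), the SIK family member with the longest protein, was the only one of the 8 tested genes called higher. It measured 45.3, 42.0 and 42.6 CPM in the MEF2C hairpin libraries, against 39.6, 40.0 and 38.8 CPM in the scramble libraries. The groups did not overlap, and hairpin replicate 1 lay highest. The increase was 0.13 on the log2 scale (SE 0.0413, 95% interval 0.05 to 0.22), or 9.62% (edgeR adjusted p = 0.0130). The call was lost without hairpin replicate 1 (log2 fold change 0.10, edgeR adjusted p = 0.115) and without scramble replicate 3 (0.12, adjusted p = 0.0640), and the adjusted p ran from 0.00562 to 0.115 over 14 alternatives. SIK3 carries the other seed site shown above. Whether that site has a part in the level of SIK3 was not tested.

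SIK2 (ENSG00000170145.5, chr11:111602391-111730853, plus strand) is the family member first studied in fat tissue. It measured 59.3, 62.4 and 60.6 CPM in the MEF2C hairpin libraries and 59.3, 61.0 and 55.5 CPM in the scramble libraries. The groups overlapped, with a log2 fold change of 0.05 and a 95% interval of -0.02 to 0.13 (edgeR adjusted p = 0.300). PPP2R1B, a gene on the list of phosphatase subunits below, overlaps 1.53% of its exonic bases.

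SIK1 (ENSG00000142178.9, chr21:43414483-43427189, minus strand), the member of the family that cAMP induces, had 0 reads in all 6 libraries. Its near-identical copy SIK1B (ENSG00000275993.4, chr21:6111134-6123739, plus strand) had 204, 411 and 187 reads in the MEF2C hairpin libraries and 210, 142 and 210 reads in the scramble libraries. The aligned transcripts of the 2 copies differ at 7 of 4705 bases, so most reads cannot tell one from the other, and the 0 under SIK1 is no measure of its absence. SIK1B averaged 3.73 ± 0.382 CPM in the hairpin libraries and 3.35 ± 0.160 CPM in the scramble libraries (SD, n = 3 each). Its log2 fold change was 0.16, with an SE of 0.131 and a wide 95% interval of -0.10 to 0.43 at this depth (edgeR adjusted p = 0.401).

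MARK2 (ENSG00000072518.23, chr11:63838928-63911019, plus strand), a kinase of microtubule-associated proteins and cell polarity that also phosphorylates HDAC7, fell. It measured 71.9, 69.7 and 68.4 CPM in the MEF2C hairpin libraries, against 79.4, 84.6 and 80.5 CPM in the scramble libraries. Every hairpin library lay under every scramble library. The change was -0.22 on the log2 scale (SE 0.0326, 95% interval -0.28 to -0.15), or -14.0% (edgeR adjusted p = 1.52e-06).

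MARK3 (ENSG00000075413.19, chr14:103385392-103503831, plus strand), known also as C-TAK1 and as a kinase of HDAC7, measured 161, 162 and 167 CPM in the MEF2C hairpin libraries and 161, 157 and 155 CPM in the scramble libraries. The groups did not overlap, but the lowest hairpin library and the highest scramble library were less than 1 CPM apart. Its log2 fold change of 0.05 (SE 0.0246, 95% interval 0.00145 to 0.10) missed the adjusted threshold (edgeR adjusted p = 0.122). A stricter filter on low counts gave 0.06 (edgeR adjusted p = 0.0389) and cyclic loess with limma gave 0.10 (adjusted p = 0.00257), and the adjusted p ran from 0.00257 to 0.378 over 14 alternatives. The log2 ratio of MARK2 to MARK3 was -1.22 ± 0.0608 in the hairpin libraries and -0.95 ± 0.0621 in the scramble libraries (SD, n = 3 each), without overlap.

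**Figure D3:**
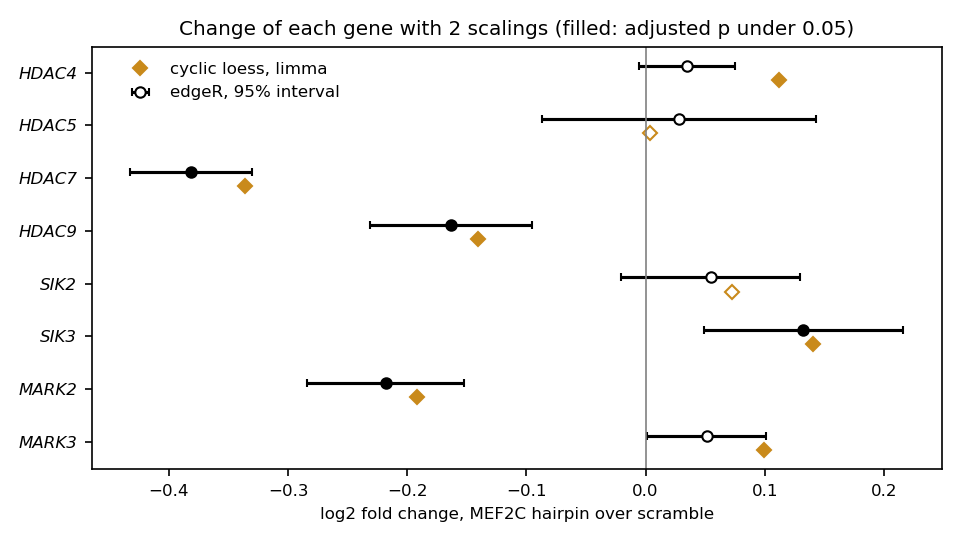
Log2 fold changes of MEF2C hairpin over scramble (horizontal axis) are drawn for each tested gene, as circles with 95% intervals from edgeR and as diamonds from cyclic loess scaling with limma, filled where the adjusted p was under 0.05. HDAC7, HDAC9 and MARK2 lie under 0 and SIK3 above 0 with both scalings, while HDAC4 and MARK3 are filled with cyclic loess only.

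Levels were compared between genes as CPM per kilobase of exonic sequence. That length joins all annotated exons of a gene (16827 bases for HDAC9, 10920 for SIK3), not only those used in these cells. The order of genes close in level depends on that choice. In the MEF2C hairpin libraries HDAC4 was highest at 44.0 CPM per kilobase, followed by MARK3 at 18.4, HDAC7 at 13.0, MARK2 at 11.4, SIK2 at 6.20, SIK3 at 3.96, HDAC9 at 3.49 and HDAC5 at 2.67. In the scramble libraries the order was HDAC4 at 43.0 CPM per kilobase, MARK3 at 17.7, HDAC7 at 17.0, MARK2 at 13.2, SIK2 at 5.99, HDAC9 at 3.90, SIK3 at 3.61 and HDAC5 at 2.63. No neighbours in either order overlapped in their ranges over the 3 libraries. SIK3 stood above HDAC9 in the hairpin libraries and under it in the scramble libraries. Summed over genes, class IIa reads came to 797 ± 13.5 CPM in the hairpin libraries and 829 ± 5.91 CPM in the scramble libraries (SD, n = 3 each). SIK2 and SIK3 together came to 104 ± 0.791 CPM in the hairpin libraries and 98.1 ± 3.40 CPM in the scramble libraries.

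The tested genes whose profile over the 6 libraries lay closest to that of HDAC7 were EIF4G3, OSBP and RCC2. Likeness was measured by the Euclidean distance between centred log2 CPM values among 9450 protein-coding genes averaging at least 5 CPM. A small distance picks genes whose difference between the groups is close to that of HDAC7. Their lower means in the hairpin libraries follow from that choice and are no separate result. EIF4G3, a translation initiation factor gene, lay at a distance of 0.0197 and averaged 89.6 ± 2.24 CPM in the MEF2C hairpin libraries and 117 ± 1.83 CPM in the scramble libraries. OSBP, an oxysterol-binding protein gene, lay at 0.0398 and averaged 78.0 ± 1.53 CPM in the hairpin libraries and 103 ± 1.89 CPM in the scramble libraries. RCC2, a regulator of mitotic chromosomes, lay at 0.0461 and averaged 649 ± 9.50 CPM in the hairpin libraries and 828 ± 9.42 CPM in the scramble libraries.

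The pathway around these 9 genes was read from 11 further lists, which hold 76 different genes, of which 62 were tested. Of these, 8 were higher (12.9%) and 17 lower (27.4%), beside 13.5% and 15.3% of all tested genes, and their median log2 fold change was -0.04. Most of the 62 genes average at least 20 CPM, unlike all tested genes. Among all genes averaging at least 100 CPM, 44.9% were lower and 12.6% higher. Among those averaging 20 to 100 CPM, 23.5% were lower and 17.0% higher. Of all genes averaging 5 to 20 CPM, where CAB39L, BRSK1 and CAMKK1 lie, 8.75% were lower and 22.4% higher, and of those averaging 1 to 5 CPM, where KLF2 lies, 3.52% were lower. Cyclic loess with limma called 26.3% of all tested genes.

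The binding proteins of phosphorylated class IIa deacetylases, the 14-3-3 family, were lower in 5 of 6 tested genes with TMM scaling, with a median log2 fold change of -0.11 beside -0.05 for all genes averaging at least 100 CPM, as these 6 do, whereas with cyclic loess scaling 3 of the 6 were lower and YWHAZ was higher (0.05, limma adjusted p = 0.0281). YWHAB averaged 667 ± 5.87 CPM in the MEF2C hairpin libraries and 753 ± 3.38 CPM in the scramble libraries (SD, n = 3 each), a difference of -0.17 on the log2 scale (edgeR adjusted p = 2.11e-09). YWHAE fell by 0.13 on the log2 scale (edgeR adjusted p = 4.23e-07) and YWHAH by 0.15 (adjusted p = 0.000386). YWHAB, YWHAE and YWHAH stayed lower with cyclic loess, at -0.09, -0.05 and -0.11. SFN was too low to test.

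Among the genes of the LKB1 complex, which activates SIK and MARK kinases, 2 of 5 were lower and 1 was higher. STK11, which encodes LKB1 itself, averaged 70.8 ± 1.92 CPM in the MEF2C hairpin libraries and 76.6 ± 1.36 CPM in the scramble libraries, a log2 fold change of -0.11 (edgeR adjusted p = 0.00603). CAB39L, a scaffold subunit, averaged 11.1 ± 0.419 CPM in the hairpin libraries and 15.4 ± 1.15 CPM in the scramble libraries, with a log2 fold change of -0.48 (edgeR adjusted p = 1.04e-06). The pseudokinase gene STRADB was higher by 0.13 (edgeR adjusted p = 0.0401), a call lost in 7 of 14 alternatives, with adjusted p-values from 0.0181 to 0.245. Of 9 other kinases that LKB1 activates, 4 were tested, and BRSK1 was the 1 that passed, at 11.5 ± 0.0872 CPM in the hairpin libraries and 9.36 ± 0.804 CPM in the scramble libraries (log2 fold change 0.29, edgeR adjusted p = 0.00343).

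Of 13 other kinases that act on class IIa deacetylases or switch on those that do, 9 were tested, and 3 were lower and 1 higher. Over 14 alternatives the lower count ran from 2 to 3 and the higher count from 1 to 2. With cyclic loess and limma, 2 were lower and 2 higher. CAMK4, a calcium-dependent kinase of T cells, averaged 141 ± 3.95 CPM in the MEF2C hairpin libraries and 159 ± 4.01 CPM in the scramble libraries, a log2 fold change of -0.17 (edgeR adjusted p = 1.43e-06). PRKD2, the protein kinase D gene prominent in lymphocytes, averaged 75.5 ± 1.06 CPM in the hairpin libraries and 83.3 ± 2.89 CPM in the scramble libraries, with a log2 fold change of -0.14 (edgeR adjusted p = 0.000630). CAMKK1, an activator of CAMK4, moved the other way, at 18.1 ± 1.48 CPM in the hairpin libraries and 13.8 ± 0.268 CPM in the scramble libraries (log2 fold change 0.38, edgeR adjusted p = 1.31e-05). Of 7 phosphatase subunits that can act on these proteins, 3 were lower, the median log2 fold change was -0.06 and all 7 lay under 0. Of these 7 genes, 3 average at least 100 CPM and 4 average 20 to 100 CPM, where the medians of all tested genes were -0.05 and -0.02 and 70.2% and 56.6% lay under 0, so the list median is near that of equally abundant genes. PPP2R1A, the main scaffold of phosphatase 2A, averaged 149 ± 4.17 CPM in the hairpin libraries and 174 ± 2.68 CPM in the scramble libraries, with a log2 fold change of -0.23 (edgeR adjusted p = 2.93e-09). PPP1CB was lower by edgeR (-0.12, adjusted p = 9.20e-05) and missed the threshold with cyclic loess and limma (-0.06, adjusted p = 0.0601), its adjusted p running from 1.67e-05 to 0.0601. The call for PPP2CA (-0.12, edgeR adjusted p = 0.0175) was lost without hairpin replicate 1 (adjusted p = 0.0554), hairpin replicate 2 (0.0687) or scramble replicate 2 (0.106), in a range from 0.00725 to 0.106.

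Protein kinase A, the brake on SIK kinases, had 1 of 6 genes lower and 1 higher. The catalytic subunit gene PRKACB averaged 60.3 ± 1.33 CPM in the MEF2C hairpin libraries and 71.2 ± 1.96 CPM in the scramble libraries, a log2 fold change of -0.24 (edgeR adjusted p = 5.29e-07). The regulatory subunit gene PRKAR1B was higher by 0.09 (edgeR adjusted p = 0.0118), a call lost without hairpin replicate 2 (adjusted p = 0.0783) or scramble replicate 1 (0.0628), in a range from 0.000984 to 0.0783. Among the CRTC coactivators and CREB factors, the other branch under SIK control, 2 of 6 genes were higher and 0 lower. CRTC2 averaged 48.5 ± 2.81 CPM in the hairpin libraries and 44.1 ± 0.975 CPM in the scramble libraries (log2 fold change 0.14, edgeR adjusted p = 0.00880), and the call was lost without hairpin replicate 1 (adjusted p = 0.118, in a range from 0.00312 to 0.118). CRTC3 averaged 115 ± 1.80 CPM in the hairpin libraries and 109 ± 1.40 CPM in the scramble libraries (log2 fold change 0.09, edgeR adjusted p = 0.00923), and the call was lost without hairpin replicate 2 (adjusted p = 0.0702) or scramble replicate 3 (0.0588), in a range from 0.000537 to 0.0702.

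TBL1X, a gene of the NCoR corepressor complex, was lower at 122 ± 2.41 CPM in the hairpin libraries and 132 ± 4.57 CPM in the scramble libraries (log2 fold change -0.11, edgeR adjusted p = 0.00250), a call lost with cyclic loess and limma (-0.06, adjusted p = 0.0898, in a range from 0.000628 to 0.0898). Of 7 other zinc-dependent deacetylases, HDAC3 included, 0 passed the test, with log2 fold changes between -0.06 and 0.19. With cyclic loess and limma, HDAC1 was higher (0.06, adjusted p = 0.0180).

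**Figure D4:**
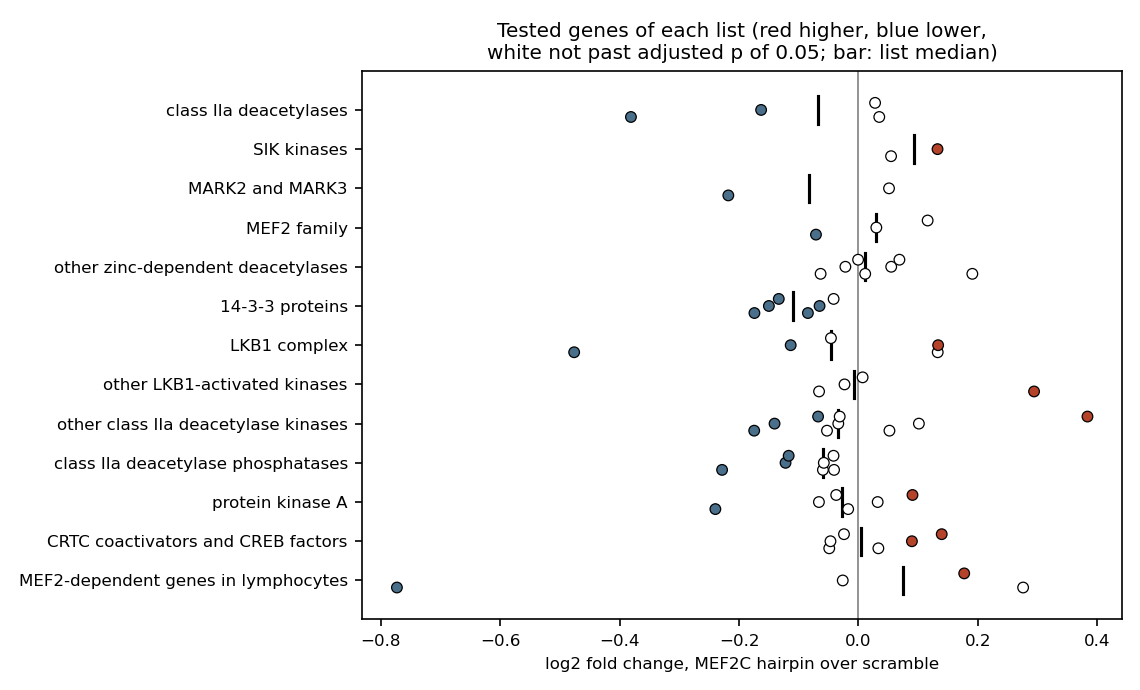
Each point is a tested gene of the list named at the left, placed by its log2 fold change of MEF2C hairpin over scramble (horizontal axis), with genes higher in red, genes lower in blue, genes past no threshold in white, and the list median as a bar. The corepressor complex is not drawn. The 14-3-3 proteins and the phosphatase subunits lie wholly under 0, with medians of -0.11 and -0.06, beside -0.05 for all genes of at least 100 CPM and -0.02 for those of 20 to 100 CPM, and the other lists reach both sides of 0 except the SIK kinases.

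Of the MEF2 factors that class IIa deacetylases bind, MEF2A averaged 123 ± 0.445 CPM in the MEF2C hairpin libraries and 130 ± 3.92 CPM in the scramble libraries, and MEF2D 53.4 ± 1.32 CPM in the hairpin libraries and 52.2 ± 1.04 CPM in the scramble libraries. The log2 difference for MEF2A was -0.07 (edgeR adjusted p = 0.0385) and missed the threshold in 10 of 14 alternatives, with adjusted p-values from 0.0287 to 0.499, and MEF2D of 0.03 (adjusted p = 0.608). MEF2B stayed under 1 CPM, at 0.352 ± 0.0770 CPM in the hairpin libraries and 0.314 ± 0.0821 CPM in the scramble libraries. Of the exonic bases of MEF2B, 73.9% are overlapped by the gene BORCS8-MEF2B on the same strand. Reads in that stretch cannot be assigned with certainty, so the low count is no full measure of the MEF2B level. Of 7 genes known to depend on MEF2 in lymphocytes, 4 were tested. KLF2, a factor of T-cell quiescence, was lower at 1.52 ± 0.172 CPM in the hairpin libraries and 2.63 ± 0.373 CPM in the scramble libraries (log2 fold change -0.77, SE 0.175, edgeR adjusted p = 0.000650). JUN, a subunit of the AP-1 factor, was higher at 43.1 ± 1.41 CPM in the hairpin libraries and 38.1 ± 1.09 CPM in the scramble libraries (log2 fold change 0.18, edgeR adjusted p = 0.00105). NR4A1, the gene that HDAC7 holds down in mouse T cells, averaged 3.59 ± 0.246 CPM in the hairpin libraries and 2.96 ± 0.256 CPM in the scramble libraries and did not pass the test (log2 fold change 0.28, SE 0.136, edgeR adjusted p = 0.133). NR4A1 and NR4A3 lie outside the rule for named genes, and NR4A1 is given after its value was seen because of that known link.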

How the data were processed

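Total RNA was extracted with TRIzol and made into TruSeq libraries, per the labels' protocols. Reads were processed with Trim Galore, STAR and HTSeq on hg38, per the submitters' processing notes; versions, annotation release and strand setting are not given in the sources used here. The deposited values are the authors' whole-number read counts per gene, 1 file per library, not normalized. Summary lines that name no gene held 19.2% to 31.4% of reads and stayed out of library sizes and tests. Multi-mapping reads made up 3.82, 3.56 and 16.1% of MEF2C hairpin replicates 1 to 3, against 3.67, 4.19 and 6.86% of scramble replicates 1 to 3.

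Genes were filtered by filterByExpr with a minimum count of 10, scaled by TMM, and fitted with edgeR 4.0.16 (R 4.3.3) by the robust quasi-likelihood test with no covariate. Fold changes set the MEF2C hairpin over the scramble. Standard errors (SE) were taken as the size of the log2 change divided by the root of its F statistic, and p-values are Benjamini-Hochberg adjusted across the whole table (threshold 0.05). CPM of tested genes uses TMM-scaled sizes, except for the cell type markers. CPM of all markers and of untested genes uses the gene totals. The intervals and floors cover the spread between these libraries and counting error only. Gene positions, exon lengths and 3′ UTRs came from GENCODE 29.

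The genes, lists and tests were chosen with earlier results of these data known. Named are the 9 genes, SIK1B, the 4 MEF2 genes, of each other list up to 3 called genes with the lowest adjusted p, and the 3 genes of at least 5 CPM closest in profile to the gene with the smallest adjusted p. Alternatives were DESeq2 1.42.0, other scalings, cyclic loess with limma 3.58.1, other filters, a replicate block and leaving out each library. The fit was tested on simulated data for 17677 genes. It called 34 of 50 genes changed by 0.25 on the log2 scale and 40 of 50 changed by 0.5. Of 17120 unchanged genes it called 15. Smaller changes were not simulated, and far fewer genes were changed there than were called in the data. Libraries of the same group were 3.31 to 4.46 chi-square units apart per gene, where sampling noise gives 1, and each was counted as a separate library. Some genes that the rule names are not reported here.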

Additional observations from a re-analysis of the deposited data

Results flagged for a closer look

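Outside the gene counts, the share of reads that fell in no annotated gene was 12.2 ± 0.283% in the MEF2C hairpin libraries and 11.5 ± 0.194% in the scramble libraries (SD, n = 3 each), above the level of the scramble controls. The separate libraries held 12.1, 12.5 and 11.9% with the hairpin and 11.6, 11.3 and 11.6% with the scramble. These reads entered no comparison of the 9 genes, and their part in the results was not tested.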

How the results depend on the processing

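HDAC7, HDAC9 and MARK2 stayed lower and past the threshold in all 14 alternatives, at -0.40 to -0.34 for HDAC7, -0.17 to -0.14 for HDAC9 and -0.24 to -0.19 for MARK2. SIK3 ran from 0.10 to 0.15 when each library was left out, missing the threshold in 2 of these 6 fits. HDAC5 ran from -0.00703 to 0.0643 when each library was left out, and MEF2B from -0.0546 to 0.31. HDAC4 passed the threshold with cyclic loess (0.11), and MARK3 with cyclic loess (0.10) and with the stricter filter (0.0629). The HDAC7 share of class IIa reads differed by -4.57 percentage points with HDAC9 left out of the total and by -4.20 to -3.93 points when each library was left out. All tested genes called ran from 4113 to 5127, beside 5097 in the reported fit, the 8 genes called from 3 to 6, and list genes called from 19 to 25. The share of calls that were higher ran from 43.5% with DESeq2 to 52.3% with cyclic loess, beside 46.8%. Same-numbered replicates showed no shared deviation (correlations of -0.102, 0.0190 and 0.0327), beside -0.129 to 0.136 for differently numbered ones. Such values cannot tell whether same-numbered libraries were handled together, and the reported fit pairs none. The replicate block gave 4892 calls and HDAC7 at -0.38. Few reads limit SIK1B and KLF2, at under 5 CPM. MEF2C lay under the floor in the scramble libraries as well as in the hairpin libraries, so a loss of its transcript cannot be seen here. Technical replicates, 1 hairpin and an unknown strand setting limit every result, and the near-identity of SIK1 and SIK1B limits both.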
